A study of Arabidopsis thaliana with 24 samples.

Results

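The transcripts described here stood high at pre-dawn and midday and low in late day and at midnight in well-watered Arabidopsis rosettes. They were chosen on the well-watered group means of the deposited log2 levels, among 22746 probe sets that are no array controls. A probe set had to reach a log2 level of 5 in at least 3 of the 24 arrays, which 11926 did. Its pre-dawn and midday means had to lie less than 1 log2 unit apart. The lower of these means had to exceed the higher of the late-day and midnight means by a margin of 1 log2 unit or more. The rule allowed 200 members and 16 probe sets met it, so 16 of 11926 are described. Since the well-watered means chose them, the well-watered pattern is given as a description without a test. The water-limited arrays played no part in the margin and were the samples in which the pattern was tested.

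The study asked how the time of day shapes the response of the transcriptome to drought. Total RNA came from whole rosettes of wild-type Columbia-0 plants that were 32 days old and grown under a photoperiod of 12 h. Well-watered plants received water every other morning for 32 days, and water-limited plants received it for 28 days and then none for 4 days. Both regimes were sampled at pre-dawn (6 h), midday (12 h), late day (18 h) and midnight (0 h), which gives 8 groups of 3 arrays. Each array carried biotin-labelled target of 1 sample, and the 3 samples of a group are called biological replicates in the series' design text. The labels do not say how many rosettes a sample held or whether its plants shared a tray.

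In plants the circadian clock and the light and dark phases together set the hour at which most rhythmic transcripts peak. Some transcripts begin to accumulate in the dark before dawn, in anticipation of light, and decline again during the day. Dawn-phased MYB-like factors such as CCA1 and LHY and the later-peaking pseudo-response regulators repress each other's genes and pass this timing on to their targets. Drought acts on the same rosettes through abscisic acid and osmotic signals, and the set of genes it alters is known to depend on the hour of sampling.

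Gene names were limited. Of the 16 probe sets, 5 were assigned to 1 gene each by the platform annotation and 11 carry no name in the tables used, so these are given by probe set. AT1G32090 belongs to the ERD4-like family related to the OSCA osmosensing cation channels. AT5G17760 encodes an AAA-type ATPase, a family of proteins that use ATP to remodel other proteins. AT5G14550 belongs to a family of glycosyltransferases related to the animal core-2/I-branching enzymes. AT4G36180 is a leucine-rich repeat receptor-like kinase, the large class of plant cell-surface receptors. For AT5G64550 no role is given.

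The array medians lay between 4.66 and 4.86 log2 units. RCA, the Rubisco activase of green tissue, was measured at 13.65 to 14.62 in all 24 arrays. It was the only leaf marker of 5 listed that the annotation names. FAMA, a guard cell lineage factor, was at 5.19 to 7.28, and PYK10, a root beta-glucosidase, at 4.59 to 8.04, as 1 of 4 guard cell and 1 of 3 root markers with a name. None of 5 flower markers had a named probe set. On the control probe sets of GAPDH the 3′ minus 5′ difference, which tracks how intact the RNA was, did not overlap between regimes at 2 times. At pre-dawn it was 1.31 to 1.48 in well-watered and 1.58 to 1.64 in water-limited arrays, and in late day it was 1.26 to 1.46 against 1.50 to 1.75. On the Actin controls the regimes overlapped at pre-dawn, at 4.343 to 4.439 against 4.398 to 4.715. In late day they did not, at 3.804 to 3.933 against 4.02 to 4.247. On the ubiquitin controls they overlapped at pre-dawn, at 1.107 to 1.233 against 1.063 to 1.141. They did so in late day as well, at 1.145 to 1.245 against 1.051 to 1.269.

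Few transcripts had this combination of times. Applied to the other neighbouring pairs of times in well-watered rosettes, the same rule found 95 probe sets for midday with late day, 101 for late day with midnight and 112 for midnight with pre-dawn. The largest margin was also smallest here, at 2.296 log2 units against 3.53, 4.36 and 5.61. In water-limited rosettes the rule found 34 probe sets for pre-dawn with midday, against 81, 55 and 130 for the other pairs in the same order. Of the 16 well-watered members, 9 were among these 34, which is 56.2% of the former and 26.5% of the latter.

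**Figure D1:**
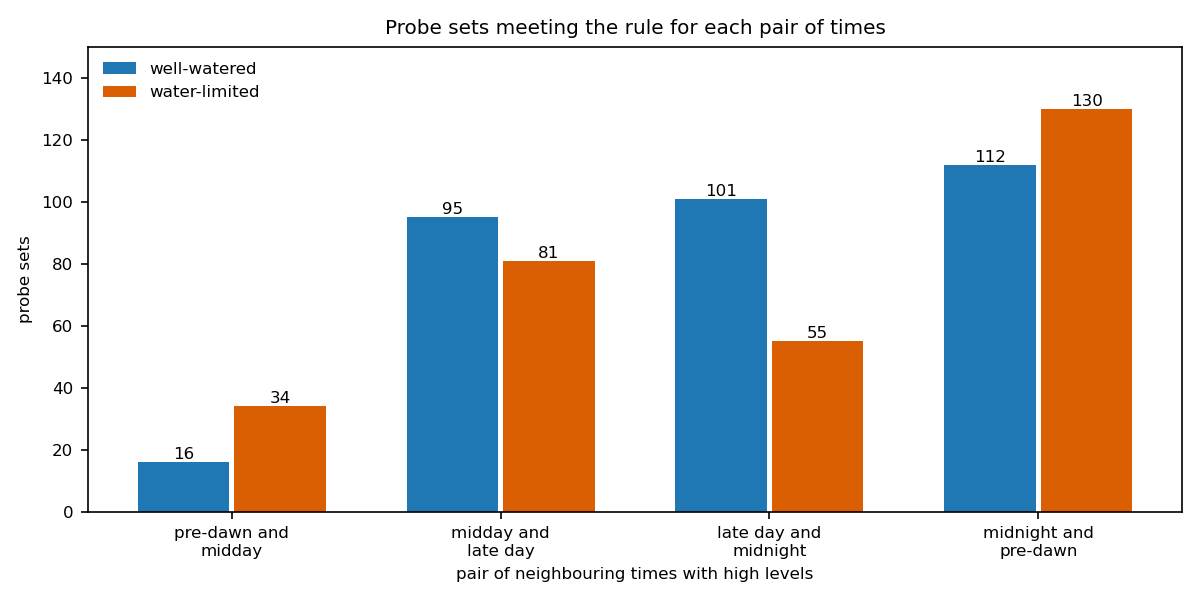
Number of probe sets (vertical axis) that met the rule for each pair of neighbouring times (horizontal axis), with bars for well-watered and water-limited group means. The pair of pre-dawn and midday has the shortest bar in both regimes, at 16 and 34 probe sets.

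The bound on the difference between the high times kept 9 further probe sets out. Without it 25 had a margin of 1 or more, and all 9 were higher at pre-dawn than at midday. The largest well-watered margin of the 9 was 3.41, for AT2G23910, with pre-dawn 1.23 log2 units above midday. Its water-limited difference between high and low times was 4.24 (limma adjusted p = 5.76e-16). Also among the 9 were COR27 and COR28, cold-responsive regulators that act on the clock and on light signalling. COR28 had a well-watered margin of 2.29 and COR27 of 1.34, with pre-dawn means 1.46 and 1.43 log2 units above midday. COR27 and COR28 were higher for the mean of pre-dawn and midday in water-limited rosettes as well, by 4.02 (limma adjusted p = 1.09e-09) and 2.86 (adjusted p = 1.88e-11).

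Within the 16 members the well-watered margins ran from 1.04 to 2.296 with a median of 1.15. Over both high times against both low times the difference had a median of 1.54 and a range of 1.16 to 4.55, against a median of 0.00 over all 11926 probe sets, a contrast that the rule itself fixes. The pre-dawn mean was the highest of the 4 in 9 members and the midday mean in 7. The lowest mean was in late day in 7 and at midnight in 9. Mean levels over the 24 arrays ran from 3.89 to 8.09, so the members are of low to moderate signal on this array. In well-watered rosettes all 6 pre-dawn and midday arrays stood above all 6 late-day and midnight arrays in 14 of 16 members. This holds for 3.14% of all probe sets, and nothing is read from it because the same arrays chose the members.

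**Figure D2:**
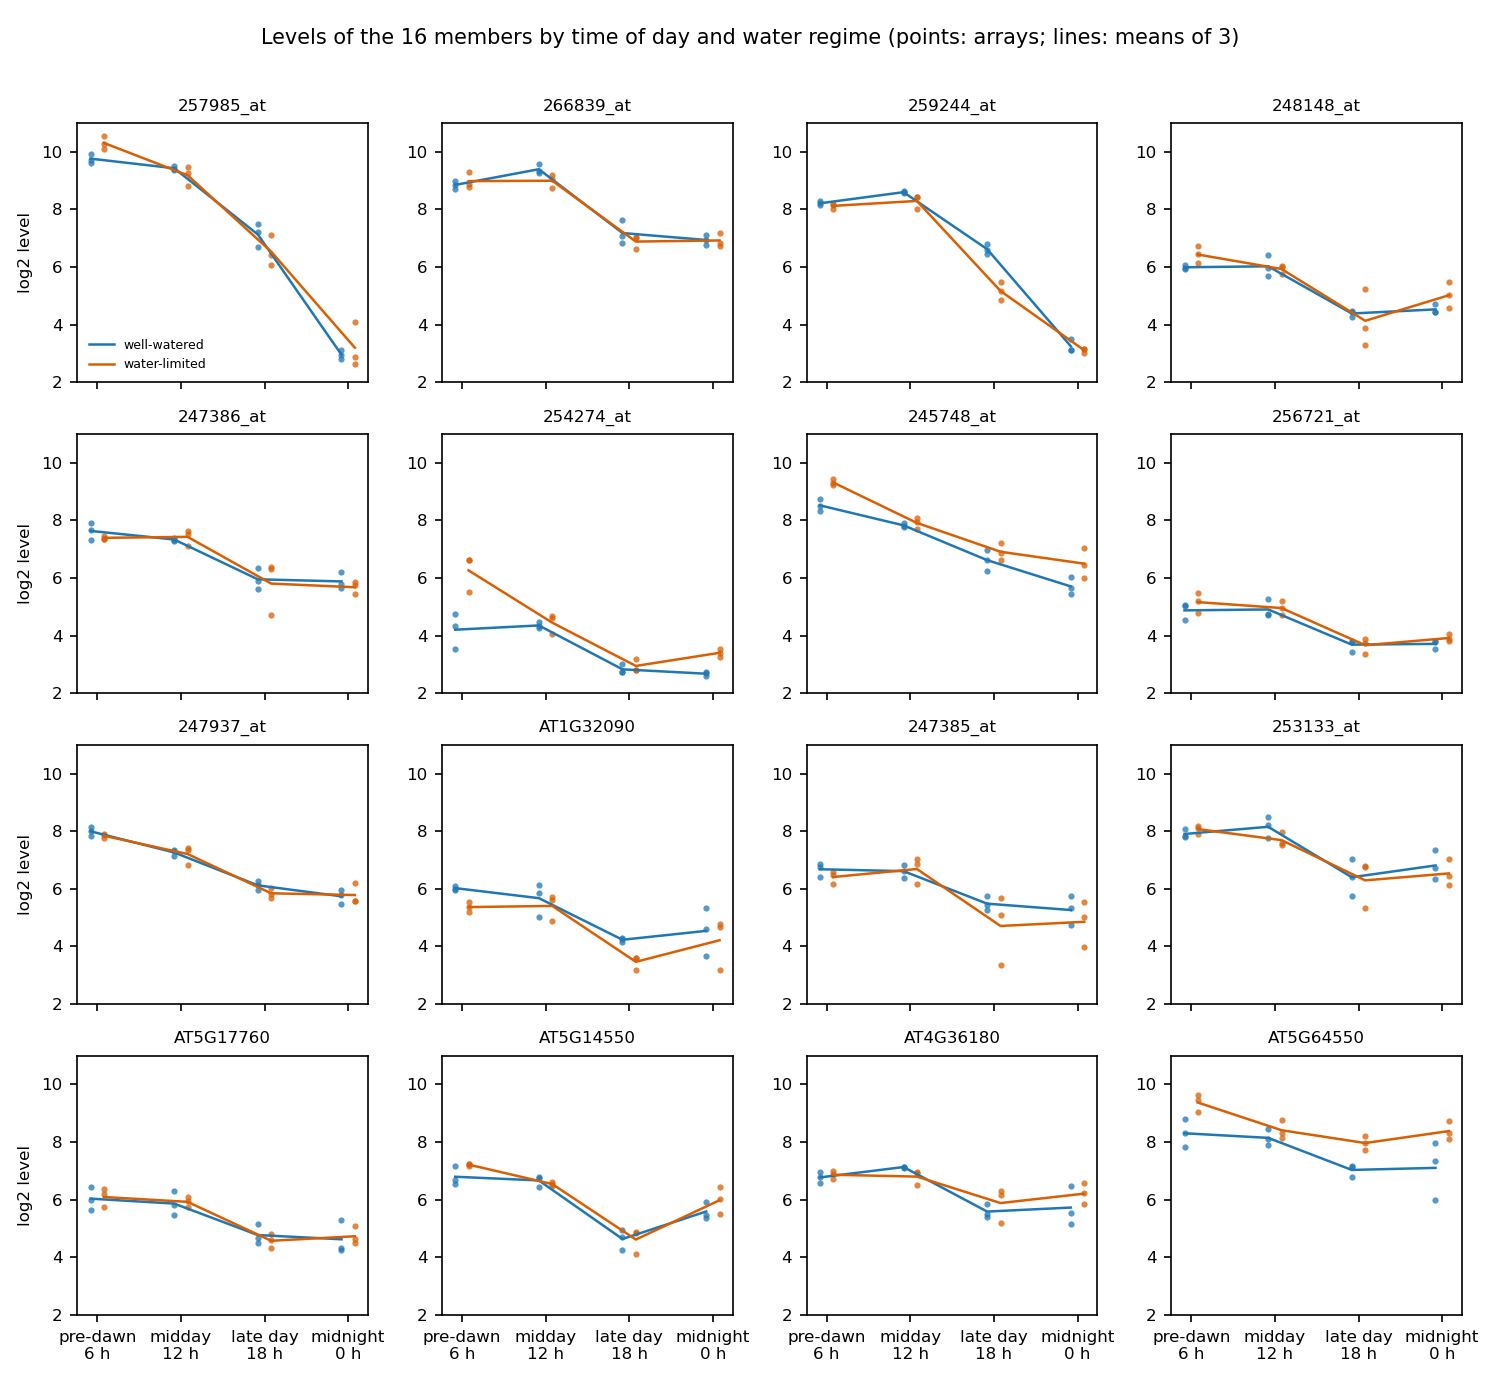
Deposited log2 level (vertical axis) of each of the 16 members at the 4 times of day (horizontal axis), with points for arrays and lines through the means of 3 arrays for each water regime. 257985_at and 259244_at fall furthest between midday and midnight, and in most panels the lines of both regimes lie close together.

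The widest daily range belonged to 257985_at. Its well-watered arrays read 9.73, 9.93 and 9.62 at pre-dawn, 9.36, 9.40 and 9.52 at midday, 7.49, 7.21 and 6.69 in late day and 3.13, 2.79 and 2.95 at midnight. Its water-limited arrays read 10.54, 10.10 and 10.28, then 8.83, 9.25 and 9.48, then 6.06, 7.11 and 6.43, and last 4.096, 2.88 and 2.62 at the same times. In both regimes late day was intermediate and midnight was near the lowest value of the table, 2.196, and no array of one time overlapped an array of the next in the water-limited series. Averaged over the high and the low times the water-limited difference was 4.88 ± 0.21 log2 units (SE, 29.4-fold, limma adjusted p = 4.35e-13).

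A similar decline from midday through late day to midnight was seen for 259244_at. Well-watered arrays gave 8.27, 8.21 and 8.15 at pre-dawn, 8.59, 8.63 and 8.57 at midday, 6.45, 6.81 and 6.60 in late day and 3.12, 3.14 and 3.50 at midnight. Water-limited arrays gave 8.17, 8.19 and 8.01, then 8.02, 8.43 and 8.42, then 5.49, 5.17 and 4.84, and last 3.16, 3.01 and 3.17. The regimes overlapped at pre-dawn and at midnight, while at midday and in late day every water-limited array lay below every well-watered one. The water-limited difference between high and low times was 4.07 ± 0.11 (SE, 16.8-fold, adjusted p = 4.18e-16).

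For 266839_at the low level was already reached in late day. Its water-limited arrays were at 9.30, 8.87 and 8.76 at pre-dawn and 8.76, 9.04 and 9.18 at midday, against 7.02, 6.62 and 7.004 in late day and 6.73, 7.20 and 6.84 at midnight. The high and the low times were 1.56 apart or more in every pair of arrays across them, and the difference was 2.08 ± 0.14 (SE, 4.24-fold, adjusted p = 5.78e-10).

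The main question was whether the pattern was present in the arrays that had not chosen the members. In water-limited rosettes all 16 members were higher at pre-dawn and midday than in late day and at midnight at a limma adjusted p under 0.05, where 17.4% of all probe sets tested were. The median difference was 1.64 log2 units with a range of 0.72 to 4.88, against 0.02 over all probe sets. In whole rosettes a lower level can come from less RNA per cell or from fewer cells of a type, and these cannot be told apart. FAMA, the 1 of 4 guard cell markers with a name, moved the same way, by 0.70 (adjusted p = 0.00423), with 6.12 to 7.28 at the high times and 5.19 to 6.30 at the low times in water-limited arrays. PYK10 (0.22, adjusted p = 0.712) and RCA (-0.22, adjusted p = 0.127) did not pass. The GAPDH 3′ minus 5′ difference was lower at water-limited midday, 1.17 to 1.43, than at the other times, 1.49 to 1.75. The Actin and ubiquitin ranges at water-limited midday, 4.233 to 4.395 and 1.255 to 1.34, overlapped those of both low times. The pre-dawn GAPDH range of 1.58 to 1.64 overlapped the ranges of both low times. The pre-dawn Actin range, 4.398 to 4.715, overlapped that of midnight but not that of late day, 4.02 to 4.247. For ubiquitin the pre-dawn range, 1.063 to 1.141, overlapped that of late day but not that of midnight, 1.231 to 1.455. The part of FAMA and of RNA integrity in the pattern was not tested. The 1 member whose water-limited arrays also decided its entry is 254274_at, which reached a log2 level of 5 in 0 well-watered arrays and in the 3 water-limited pre-dawn arrays alone.

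Taken time by time, 16 members were higher at pre-dawn than in late day (23.2% of all probe sets), 14 at pre-dawn than at midnight (9.31%), 15 at midday than in late day (12.3%) and 13 at midday than at midnight (13.5%). All 4 of these differences passed the threshold in 13 of 16 members, against 169 of 11926 probe sets or 1.42%. Without 254274_at the count was 12 of 15. All 6 high-time arrays stood above all 6 low-time arrays in 14 members, against 2.94% of all probe sets. The water-limited margin was above 0 in 16 members, reached 1 in 12 and exceeded the well-watered margin in 9, with a median of 1.15.

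**Figure D3:**
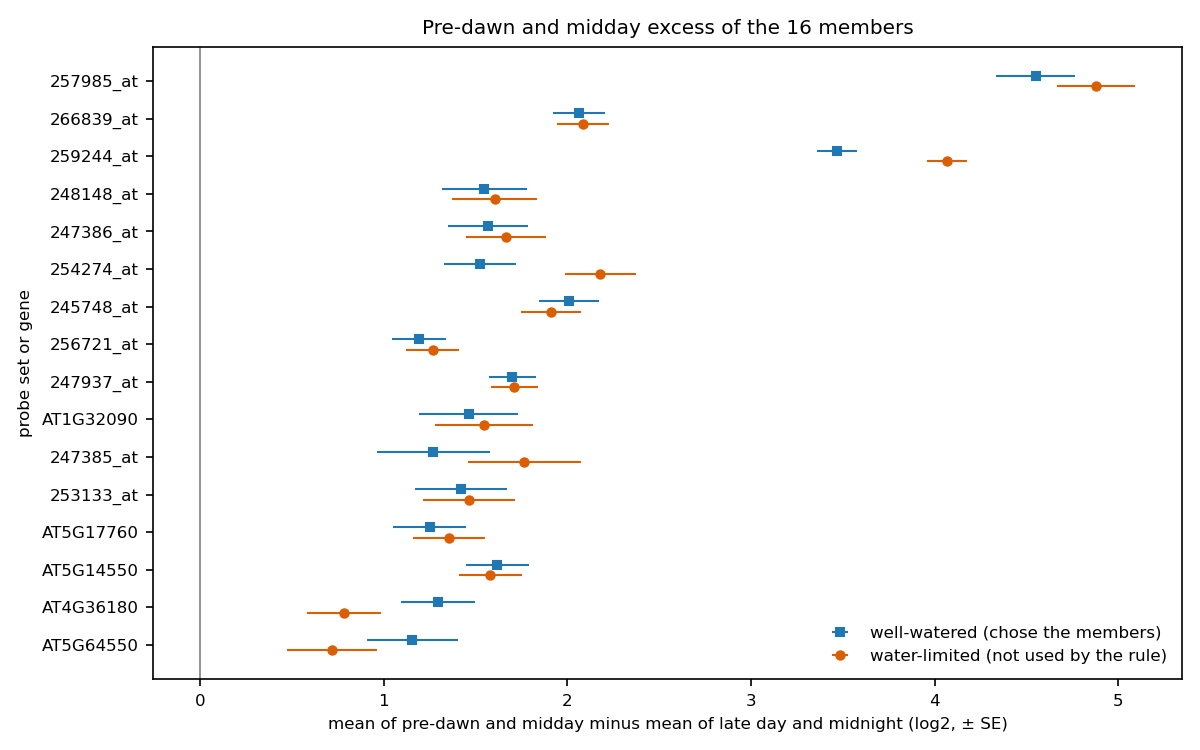
Mean of pre-dawn and midday minus mean of late day and midnight (horizontal axis, log2 units, bars of 1 SE from limma) for the 16 members, with squares for well-watered arrays, which chose the members, and circles for water-limited arrays. Every water-limited value lies above 0, from 0.72 for AT5G64550 to 4.88 for 257985_at.

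Among the named genes, AT1G32090 of the osmosensing channel family kept its times. Its well-watered arrays read 6.10, 5.97 and 6.00 at pre-dawn, 5.85, 5.04 and 6.14 at midday, 4.25, 4.17 and 4.29 in late day and 5.33, 4.61 and 3.68 at midnight. Its water-limited arrays read 5.54, 5.36 and 5.20, then 4.89, 5.71 and 5.62, then 3.60, 3.60 and 3.20, and last 3.20, 4.67 and 4.77. In the well-watered series the highest midnight array lay above the lowest midday array, whereas the water-limited series had no such overlap. The water-limited difference was 1.55 ± 0.27 (SE, 2.92-fold, adjusted p = 0.000191) and the margin was 1.15.

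For AT5G17760, the AAA-type ATPase, the water-limited arrays gave 6.19, 5.74 and 6.36 at pre-dawn, 5.96, 6.09 and 5.73 at midday, 4.31, 4.60 and 4.82 in late day and 5.09, 4.49 and 4.62 at midnight. Its well-watered means were 6.04, 5.87, 4.77 and 4.63 in the same order. High and low times did not overlap, and the water-limited difference was 1.36 ± 0.20 (SE, 2.56-fold, adjusted p = 2.68e-05).

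The glycosyltransferase family gene AT5G14550 had its low point in late day. Water-limited arrays were at 7.23, 7.24 and 7.19 at pre-dawn, 6.55, 6.48 and 6.60 at midday, 4.11, 4.90 and 4.85 in late day and 6.43, 6.03 and 5.49 at midnight. Midnight was thus partway back, 1.36 ± 0.24 (SE) above late day (adjusted p = 0.000171), and its highest array lay just below the lowest midday array. Well-watered means ran the same course, with 6.80, 6.67, 4.64 and 5.59. The water-limited difference over both pairs of times was 1.58 ± 0.17 (SE, adjusted p = 5.86e-07), while midday exceeded midnight by 0.56, which did not pass the threshold (adjusted p = 0.0966).

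AT4G36180, the receptor-like kinase, had water-limited and well-watered differences of 0.79 and 1.29 that were not shown to differ (limma adjusted p = 0.772). The well-watered values also chose this member, so that comparison is a description. Its water-limited arrays read 7.01, 6.70 and 6.88 at pre-dawn, 6.52, 6.91 and 6.97 at midday, 6.17, 5.19 and 6.29 in late day and 5.84, 6.23 and 6.57 at midnight. The well-watered means were 6.77, 7.13, 5.59 and 5.73. The lowest midday array lay below the highest midnight array, so the times overlapped. The difference of 0.79 ± 0.20 (SE) passed the threshold (adjusted p = 0.0058), while neither pre-dawn minus midnight (0.65, adjusted p = 0.122) nor midday minus midnight (0.59, adjusted p = 0.139) did.

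AT5G64550 was the member whose water-limited margin was smallest, at 0.03. Its well-watered arrays read 8.30, 8.80 and 7.81 at pre-dawn, 8.09, 8.45 and 7.89 at midday, 6.79, 7.17 and 7.14 in late day and 6.00, 7.34 and 7.97 at midnight. Its water-limited arrays read 9.45, 9.04 and 9.63, then 8.78, 8.15 and 8.30, then 7.74, 8.20 and 7.96, and last 8.73, 8.09 and 8.33. The well-watered midnight arrays spanned almost 2 log2 units, and the water-limited midday and midnight arrays covered nearly the same range. The water-limited difference was 0.72 ± 0.25 (SE, adjusted p = 0.0324), and it no longer passed when any 1 of 6 water-limited arrays was left out (adjusted p up to 0.0767). Midday differed from midnight by 0.03 (adjusted p = 0.966) and from late day by 0.45 (adjusted p = 0.374).

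The remaining unnamed members lay between these. 247937_at (1.71, 3.27-fold), 247386_at (1.67, 3.18-fold), 248148_at (1.60, 3.04-fold), 253133_at (1.47, 2.76-fold) and 256721_at (1.27, 2.41-fold) passed all 4 pairwise tests in water-limited rosettes. 247385_at did so as well, with a difference of 1.77 ± 0.31 (SE). Its late-day arrays read 5.09, 3.34 and 5.70, the widest spread of any member in a group (SD 1.22). Over the 16 members the first water-limited late-day array was the lowest in 7, the second in 6 and the third in 3. The 6 included 247386_at (6.32, 4.70 and 6.39), 253133_at (6.75, 5.33 and 6.80), 248148_at (3.87, 3.28 and 5.25) and AT4G36180. Over all probe sets the mean variance within the water-limited late-day group was 0.177, against 0.073 to 0.108 in the other groups. Without that array all 16 members still passed for high against low times, with a median difference of 1.50, and 12 passed all 4 pairwise tests.

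Within the high times, 12 of 16 members were not called as different in water-limited rosettes, and within the low times 12 were not either. The members that were called are given beside the shares of all probe sets and are not read as a trait of the set. The rule held pre-dawn and midday less than 1 log2 unit apart in well-watered means, where the difference ran from -0.54 to 0.74. In water-limited arrays 4 members were higher at pre-dawn than at midday and 0 were lower, against 9.07% and 10.2% of all probe sets, and 3 members were apart by 1 log2 unit or more. One of the 4, 254274_at (1.81 ± 0.27 SE, adjusted p = 7.64e-05), became a member through its high water-limited pre-dawn arrays, so its difference was favoured by the level filter, and 3 of 15 remain without it. These 3 were 245748_at (1.40 ± 0.23, adjusted p = 0.000186), 257985_at (1.12 ± 0.30, adjusted p = 0.012) and 247937_at (0.63 ± 0.18, adjusted p = 0.0175). On the GAPDH, Actin and ubiquitin controls alike, the ranges of water-limited pre-dawn and midday did not overlap. The part of RNA integrity in this contrast was not tested. Leaving out the first water-limited pre-dawn array took the count of 4 to 2, with 257985_at and 247937_at lost at adjusted p = 0.0608 and 0.0637. Both also fell short without the first water-limited midday array (limma adjusted p = 0.0574 and 0.104). In a fit to the water-limited arrays alone they fell short as well (adjusted p = 0.0574 and 0.0657). At the low times 2 members, 257985_at (3.33) and 259244_at (2.06), were higher in late day than at midnight, against 18.5% of all probe sets. Another 2, AT5G14550 (-1.36) and 248148_at (-0.89), were lower, against 16.3%. The highest water-limited mean was at pre-dawn in 11 members and at midday in 5, and the lowest was in late day in 11 and at midnight in 5.

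Water limitation itself was compared at each time, with the same well-watered arrays that chose the members, so these values are descriptions beside the background. At midday 0 of 16 members differed between regimes, and 0% of all probe sets did. The limma fit gave 0 members and 593 probe sets at an unadjusted p under 0.05 there, and the members' differences ran from -0.46 to 0.27. At midnight 0 members differed, against 0.386% of all probe sets, with 3 members and 1591 probe sets at an unadjusted p under 0.05. In late day 1 member was lower, against 0.176% of all probe sets, and at pre-dawn 2 were higher, against 4.1%. The 2 included 254274_at, which passed the level filter through its 3 water-limited pre-dawn arrays alone, so a high value there was required. The pre-dawn count was 1 of 15 when 254274_at was left out. The median over the members was 0.15 at pre-dawn, -0.07 at midday, -0.17 in late day and 0.15 at midnight.

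**Figure D4:**
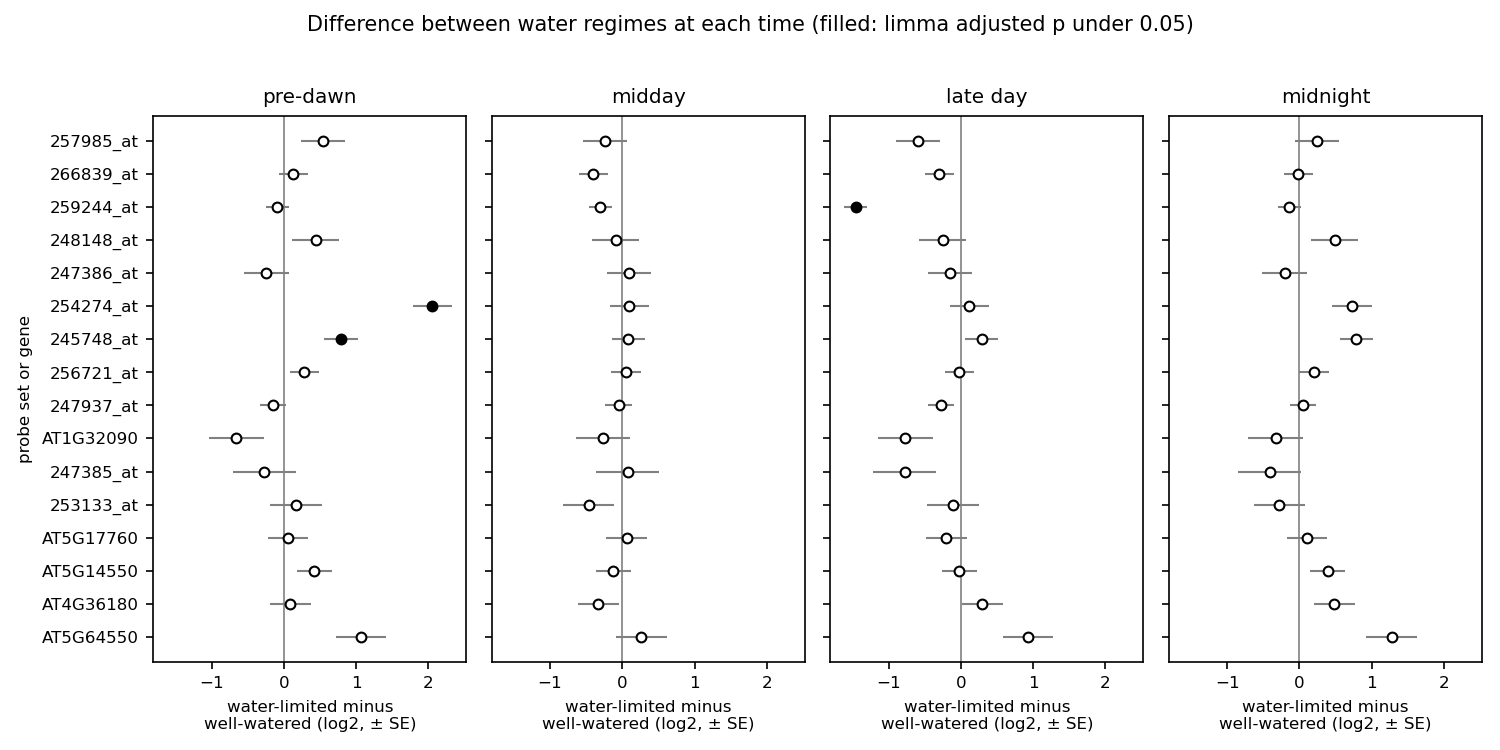
Water-limited minus well-watered level (horizontal axis, log2 units, bars of 1 SE from limma) of each member at pre-dawn, midday, late day and midnight, with filled points where the limma adjusted p was under 0.05. The filled points are 254274_at and 245748_at at pre-dawn and 259244_at in late day.

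The member that was lower in late day was 259244_at, by -1.45 ± 0.16 log2 units (SE, 2.74-fold, adjusted p = 0.000114). Its well-watered late-day arrays read 6.45, 6.81 and 6.60 and its water-limited arrays 5.49, 5.17 and 4.84, as given above. The difference was -0.30 at midday, -0.14 at midnight and -0.09 at pre-dawn. A limma F-test of whether the regime difference varied among the 4 times gave an adjusted p of 0.0332, which 6 of 11926 probe sets (0.0503%) and 1 member reached. The well-watered means in this test also chose the member, so the value is a description. A fit to the 6 late-day arrays alone, with fewer degrees of freedom, gave the same late-day difference at an adjusted p of 0.0992. The GAPDH and Actin 3′ minus 5′ ranges did not overlap between regimes in late day, while those of ubiquitin did. The part of RNA integrity in the result was not tested.

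At pre-dawn 254274_at was higher in water-limited rosettes by 2.06 ± 0.27 (SE, 4.16-fold, adjusted p = 0.000768). A fit to the 6 pre-dawn arrays alone left it short of the threshold (adjusted p = 0.0605). Its pre-dawn arrays read 4.34, 4.74 and 3.53 in well-watered and 6.64, 5.51 and 6.63 in water-limited rosettes, with no overlap. At midday it stood at 4.25, 4.32 and 4.48 against 4.60, 4.04 and 4.70, which overlapped. Its well-watered low times were between 2.60 and 3.01, near the lowest value of the table. Since its 3 water-limited pre-dawn arrays alone carried it past the level filter, a high value there was required for it to be a member.

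The other member higher at pre-dawn was 245748_at, with 8.33, 8.75 and 8.48 in well-watered and 9.43, 9.21 and 9.28 in water-limited arrays. The difference was 0.79 ± 0.23 (SE, 1.73-fold, adjusted p = 0.0412), with no overlap between regimes. Its call was lost when any 1 of 7 arrays was left out, at adjusted p values up to 0.187, which leaves 254274_at as the only member called. At midnight, with 5.43, 5.65 and 6.04 against 7.05, 6.00 and 6.43, it differed by 0.79 without passing (adjusted p = 0.126). The GAPDH ranges of the regimes did not overlap at pre-dawn either, and their part in these pre-dawn results was not tested.

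Averaged over the 4 times, 3 members were higher and 1 was lower in water-limited rosettes, against 5.56% and 4.54% of all probe sets. AT5G64550 was higher by 0.89 ± 0.17 (SE, adjusted p = 0.00344), from 0.27 at midday to 1.28 at midnight, although none of its 4 single-time differences passed. 254274_at (0.75, adjusted p = 0.00199) and 245748_at (0.49, adjusted p = 0.0108) were also higher, the former through the pre-dawn value that its membership required, and 259244_at was lower by -0.50 (adjusted p = 0.000769). AT1G32090 had an average of -0.50 ± 0.19 (SE) that did not pass (adjusted p = 0.0947). Without 254274_at, 2 members were higher and 1 was lower. The difference between regimes in the pattern itself passed for 0 members and 0 probe sets in limma, with 2 members and 850 probe sets at an unadjusted p under 0.05. The pattern was larger in water-limited rosettes in 12 members and smaller in 4, from -0.51 to 0.66 log2 units, with a lowest adjusted p of 0.359. The well-watered pattern in this comparison also chose the members, so these values are a description.

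The members at the edge of the rule were 3 named genes. AT5G14550 had a well-watered margin of 1.08, AT4G36180 of 1.05 and AT5G64550 of 1.04. Just outside it were THIC at 0.99, 259008_at at 0.98 and 251789_at at 0.97. THIC makes the pyrimidine moiety of thiamin and is a known clock-controlled gene. Its well-watered means were 12.47 at pre-dawn, 12.24 at midday, 11.25 in late day and 11.01 at midnight, and its water-limited means were 12.75, 12.29, 10.82 and 11.20.

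Listed genes of the clock, light signalling, photosynthesis, starch, flavonoid and drought pathways were set beside the members. The 20 lists held 261 genes, of which 39 had a named probe set, 38 were tested and 0 were members. The 11 members without a name could not match a list, so the 0 does not show that these pathways are absent. In water-limited rosettes 10 of the 38 were higher for the mean of pre-dawn and midday against that of late day and midnight, and 9 were lower, with a median of 0.01, against 17.4% and 13.1% of all probe sets. Of these 10, 6 had a margin above 0 and 4 below it, so the latter were not above the low times at both high times. COR27 and COR28 led those that were higher. PWD, a kinase of starch breakdown, followed the same direction by 1.87 (adjusted p = 1.3e-07), and so did the anthocyanin genes UF3GT by 1.91 (adjusted p = 0.000317), with a margin of -0.19 and pre-dawn 3.02 above midday, and DFR by 1.81 (adjusted p = 0.00069). IAA29, an auxin-response repressor, was lowest at -3.13 (adjusted p = 1.86e-10), followed by the antenna gene LHCB4.2 at -1.82 and the expansin EXPA8 at -1.74.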

How the data were processed

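The deposited table holds log2 values made by the authors with GCRMA, per the submitters' processing notes, for 22810 probe sets, 64 of them array controls, on 24 arrays. The version and the summarising chip description are not given in the sources used here. GCRMA corrects background by probe composition and quantile-normalizes arrays, and 25.5% of values lie within 0.001 of the lowest, 2.196, so folds of dim probe sets are compressed. The number of arrays limits the precision.

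The values were tested unchanged with limma 3.58.1 in R 4.3.3 on 11926 probe sets at log2 5 or more in at least 3 arrays, with 8 group means, a shared spread (16 residual degrees of freedom), two-sided tests and Benjamini-Hochberg adjustment over all 11926 at 0.05. The script was checked on simulated data. Replicate numbers did not pair the samples. Errors marked SE come from this fit.

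Of the 22746 probe sets that are not controls, the platform annotation, with symbols updated through TAIR10.1 gene tables, gave 13513 exactly 1 gene, 503 several and 8730 none. Among members were named those with 1 gene, by largest margin, by largest and smallest water-limited difference, by regime difference past the threshold and at the edge of the rule. The unnamed members, AT2G23910, COR27, COR28 and the list genes with values were chosen after their values were seen. Members and lists were chosen with earlier results of these data known. Alternatives were the filter, centring, quantile normalization, array weights, subsets of arrays or probe sets, a replicate block and leaving out each array.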

Additional observations from a re-analysis of the deposited data

Results flagged for a closer look

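For 259244_at the difference between water regimes was unlike at the 4 times. The well-watered means in this comparison also chose the member, so the values are a description. A limma F-test of whether its regime difference varied among the 4 times gave an adjusted p of 0.0332, reached by 6 of 11926 probe sets and by 1 of the 16 members. The differences were -1.45 in late day, -0.30 at midday, -0.14 at midnight and -0.09 at pre-dawn, and the late-day arrays of the regimes did not overlap. Leaving out any 1 of the 24 arrays kept the late-day difference between -1.61 and -1.29 log2 units, at adjusted p values of 5.35e-05 to 0.00249. A fit to the late-day arrays alone did not pass (adjusted p = 0.0992).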

How the results depend on the processing

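Of 285 recomputed counts over the members, 259 stayed within 1.5 times the value given, and of 857 recomputed single values 832 kept their direction and side of the threshold, 25 fell short of it and none turned. Leaving out each array in turn gave 15 to 16 members higher at pre-dawn and midday in water-limited plants, 10 to 13 past all 4 pairwise tests and 2 to 5 that differed between pre-dawn and midday. For regime differences it gave 0 at midday, 1 in late day, 0 to 1 at midnight, 1 to 3 at pre-dawn and 4 to 5 on average, and 13 to 20 probe sets met the rule itself. With a mean of at least 6 log2 units, 10 members were left. Of these 10 passed for the pattern, 7 passed all 4 tests and 1 differed at pre-dawn. Over all probe sets 1741, 153 and 823 of 8916 did so. With the 5 members of 1 gene alone these counts were 5, 2 and 0, with 0 between pre-dawn and midday, 0 in late day and 1 on average. Over all probe sets they were 958, 67 and 401 of 6293, with 1121, 1 and 552 for the last 3 comparisons. Array weights gave 7 between pre-dawn and midday and 4 at pre-dawn. The counts over all 11926 probe sets rose as well, to 4444 and 4252 from 2303 and 864 in the main fit. Fits to the arrays of a contrast alone gave 10 past all 4 tests, 0 in late day and 0 at pre-dawn, against 90, 0 and 7 of 11926 probe sets. No filter gave 9 past all 4 tests and 1 at pre-dawn, against 113 and 547 of 22746 probe sets. Leaving out 254274_at, an alternative chosen after seeing the data, also gave 1 at pre-dawn. The replicate block gave 1 at pre-dawn as well, against 199 of 11926 probe sets, and changed no other member count beyond 1.5 times. Numbers did not pair samples: same-numbered samples of both regimes deviated together with a median correlation of -0.155, and 4 of 24 correlated best with their own number. Across times within a regime the median was 0.0186, from -0.291 to 0.45, with 7 of 36 pairs over 0.1 and 20 of 72 comparisons best with their own number. The planned smaller limit on the number of members was not run, since only 16 met the rule.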
